A study of Rattus norvegicus with 15 samples.

Results

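Fibroblast growth factors (FGFs) are secreted or intracellular signalling proteins. The 12 probe sets described here are all those of the array whose platform gene symbol is Fgf1, Fgf2, Fgf9, Fgf14, Fgfr1 or Fgfr2, out of 8740 probe sets that are not controls. They cover 6 genes, namely 3 secreted or releasable ligands, the intracellular family member Fgf14 and 2 receptors. Fgf1, Fgf9 and Fgf14 had 1 probe set each, Fgf2 had 2, Fgfr1 had 3 and Fgfr2 had 4. A probe set reads its target through several short oligonucleotides, which in sets whose name ends in _s_at may match more than 1 transcript, and probe sets of the same gene are not replicates of each other. The members were chosen by gene name, and earlier results of these data were known when they were chosen.

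The RNA came from rat midbrain neurons taken by laser capture microdissection, which cuts selected cells out of a tissue section. There were 8 arrays from the substantia nigra pars compacta (SNc) and 7 from the ventral tegmental area (VTA), numbered 1 to 8 and 1 to 6 and 8. The labels name no treatment, strain, sex or age, and do not say which stain or shape marked a neuron for capture or whether each array came from its own animal. The spread behind every p-value is thus that of these arrays and may be technical. The title names Parkinson's disease, where dopamine neurons die more in the SNc than in the VTA.

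Secreted FGFs bind FGF receptors, which are receptor tyrosine kinases, together with heparan sulfate on the cell surface. The bound receptor signals through adaptor proteins to the Ras-MAP kinase, phosphoinositide 3-kinase and phospholipase C gamma routes, and Sprouty proteins and dual-specificity phosphatases feed back on it. Fgf2 and Fgf20 are known as survival factors of midbrain dopamine neurons in culture. Fgf14 is not secreted; it binds the tails of voltage-gated sodium channels and helps to hold them at the start of the axon.

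Signals are the deposited intensities, which share a common scale. Their median over probe sets was 38.0 to 45.3 on the SNc arrays and 42.3 to 46.8 on the VTA arrays. A difference is SNc minus VTA, in log2(signal + 16), a scale that understates the change of dim probe sets. Centring each array on its median shifted the differences of all tested probe sets by a median of 0.093 towards SNc. Probe sets among the 40% with the lowest mean were not tested, which removed those with a mean level under 26.3. Of the 12 probe sets 7 passed that filter, for 5 of the 6 genes. Signals of different probe sets depend on their oligonucleotides, so no gene's level is set against another's. The captures carried the markers of dopamine neurons, with all 10 listed markers past the filter and Th, which makes the precursor of dopamine, at 6615 ± 527.2 (SD, n = 8) in SNc and 7193 ± 769.7 (SD, n = 7) in VTA. Of that list Gch1, which makes the cofactor of Th, was the 1 marker past the threshold below, with more signal in VTA.

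None of the FGF ligands or receptors passed the threshold of 0.05 in limma after adjustment over all 5244 probe sets tested, where 1.98% of probe sets did. Fgf9 came nearest, with more signal in VTA, and Fgf1 was next, with more signal in SNc. The unadjusted p was under 0.05 for 2 of the 7 member probe sets tested, against 15.4% of all probe sets tested. With no filter, 0 of the 12 were called, against 1.16% of all 8740 probe sets, and 4 of the 12 had an unadjusted p under 0.05, against 13.5%. The arrays of both regions overlapped for each of the 12 probe sets, while 0.549% of all probe sets had no overlap. The median difference was -0.19 over the 7 member probe sets tested and -0.044 over all 5244, and the latter became -0.00016 after quantile normalization and 0.048 after median centring. The members' median stayed negative under both, at -0.10 and -0.099. By direction, 5 of the 7 tested and 8 of all 12 were lower in SNc, as were 56.7% of all probe sets tested.

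**Figure D1:**
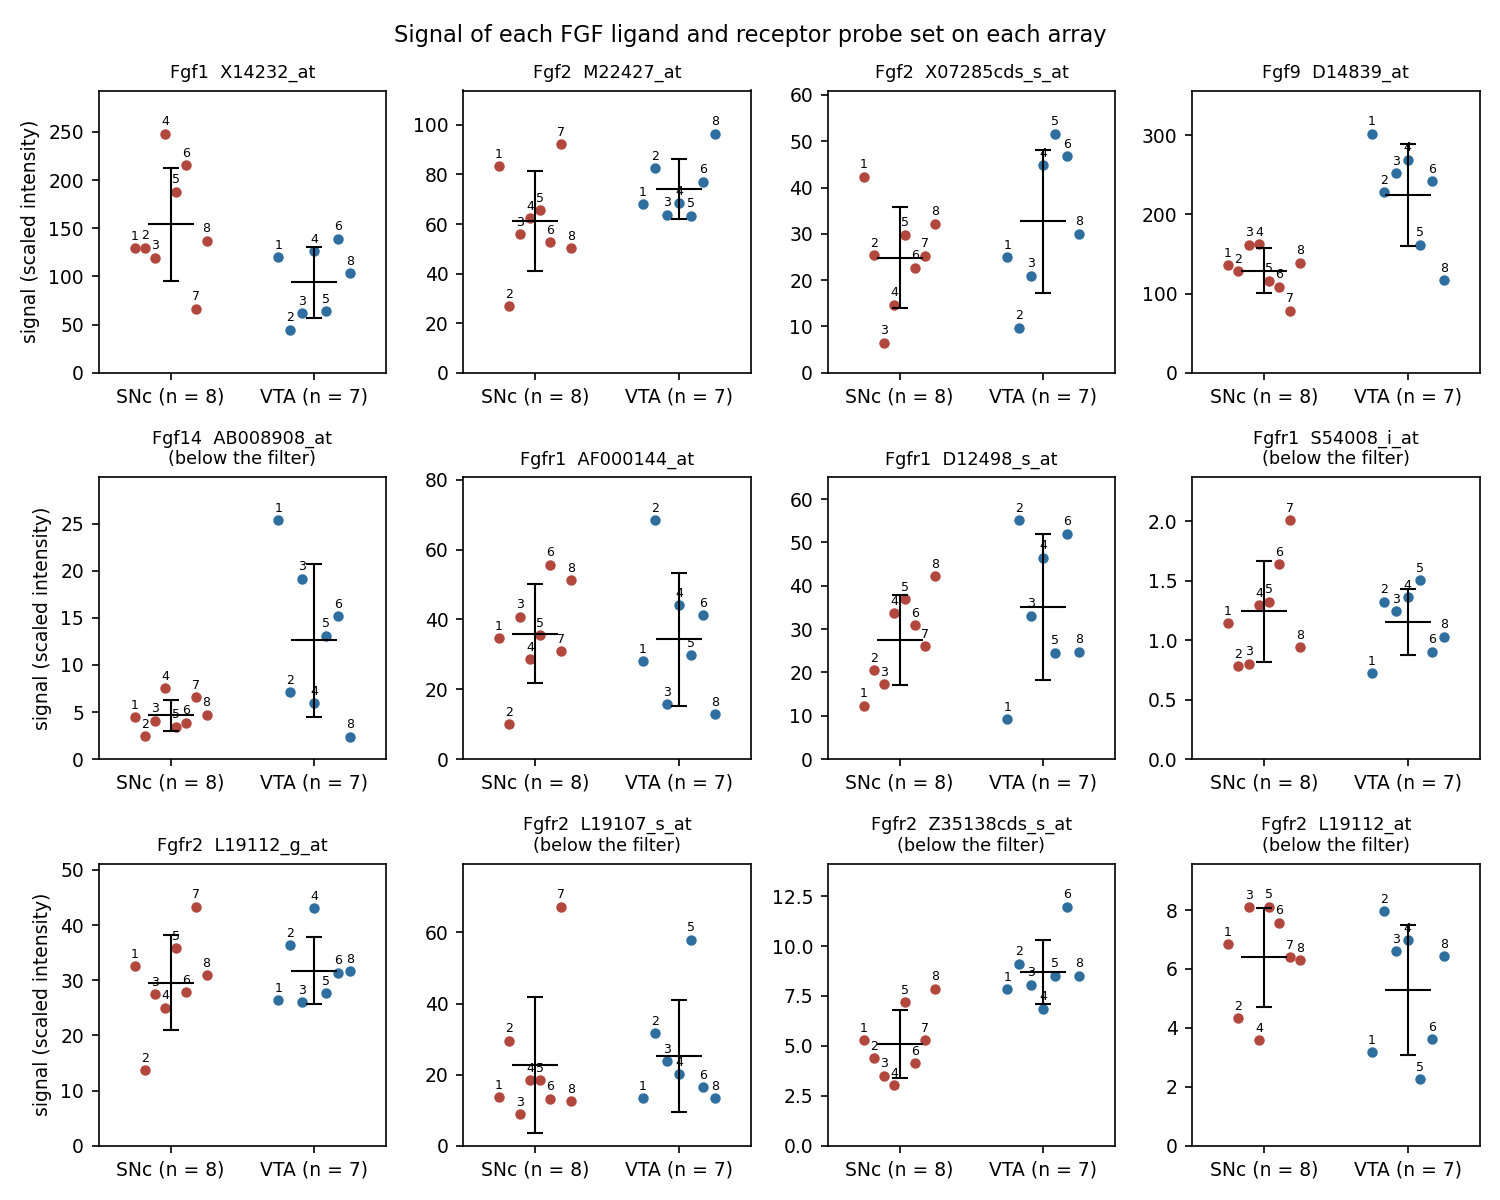
Deposited signal (scaled intensity, linear axis from 0) of each of the 12 probe sets on each array, SNc in red and VTA in blue, with array numbers beside the points and black bars for the mean ± SD. Fgf9 lay above every SNc array in 5 of 7 VTA arrays, as did Z35138cds_s_at of Fgfr2, and all 12 probe sets overlapped between regions.

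Fgf9 is a secreted ligand made by neurons as well as by glia. Its signal ran from 78.4 to 162.6 in SNc with a median of 132.2, and from 116.8 to 302.1 in VTA with a median of 242.0. In 5 of the 7 VTA arrays it was above every SNc array, while VTA 5 at 161.6 and VTA 8 at 116.8 lay within the SNc range. The mean was 128.9 ± 28.0 (SD, n = 8) in SNc and 224.6 ± 64.1 (SD, n = 7) in VTA. The log2 difference was -0.70 (SE 0.19, 95% interval -1.10 to -0.31), or 1.63-fold more in VTA on that scale, with an adjusted p of 0.0616 in limma. An exact permutation test of the same difference gave p = 0.00404 (two-sided), and 0.106 after adjustment over all probe sets tested. All 8 SNc arrays were below the VTA mean.

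VTA 8 moved the Fgf9 result most of any single array. Without it the difference was -0.84 and the adjusted p 0.0119, and without any other single array the adjusted p stayed between 0.0602 and 0.123. VTA 5 and VTA 8, the VTA arrays with the lowest Fgf9, also stood apart over all probe sets, with median correlations to the rest of 0.910 and 0.919, against 0.926 to 0.941 for the other arrays. The 3' to 5' ratio of a control transcript rises as RNA is degraded or copied short. For GAPDH it was highest on these arrays, at 5.66 and 6.82, against 2.94 to 5.05 on the others. For actin it did not set them apart, at 9.43 and 9.13, against 6.14 to 15.4 on the others. Without both, an alternative chosen after seeing the data, the Fgf9 difference was -0.94 and the adjusted p 0.00468. Fgf9 also passed with all arrays kept under an offset of 64 (adjusted p = 0.0402) and a filter of 60% (adjusted p = 0.0483). With all arrays kept it missed the threshold after median centring (-0.61, adjusted p = 0.114) and quantile normalization (-0.68, adjusted p = 0.0754). It also missed it with an offset of 1 (adjusted p = 0.0823) and with no filter (adjusted p = 0.0786). The part of RNA quality in the Fgf9 values was not tested.

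**Figure D2:**
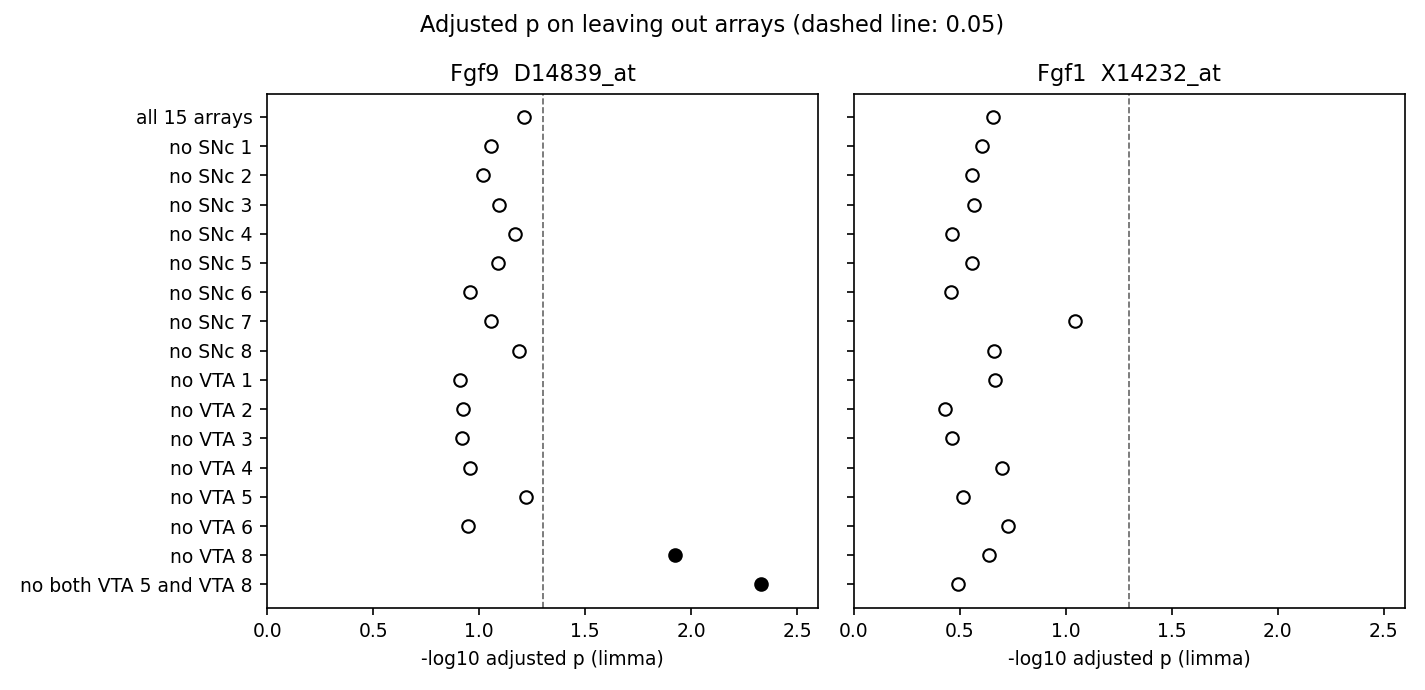
The x axis gives -log10 of the limma adjusted p for Fgf9 (left) and Fgf1 (right) with all 15 arrays, without each array in turn, and without both VTA 5 and VTA 8; filled points lie past the dashed line at 0.05. Fgf9 passed without VTA 8 and without both arrays, and Fgf1 in none of these fits.

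Fgf1, acidic FGF, has no classical secretion signal and binds all FGF receptors. Its signal ran from 66.3 to 248.3 in SNc with a median of 133.4, and from 44.5 to 139.0 in VTA with a median of 103.1. SNc 4, SNc 5 and SNc 6 were above every VTA array, and SNc 7, at 66.3, was the lowest of its region. VTA 2, VTA 3 and VTA 5 were below every SNc array. The mean was 154.2 ± 58.8 (SD, n = 8) in SNc and 94.0 ± 37.0 (SD, n = 7) in VTA. The log2 difference was 0.63 (SE 0.25, 95% interval 0.11 to 1.14), a 1.54-fold difference on that scale, with an adjusted p of 0.220 in limma and an exact permutation p of 0.0351 before adjustment. Of the 8 SNc arrays 7 were above the VTA mean. Leaving out single arrays moved the difference between 0.50 and 0.77, the adjusted p being lowest, at 0.0899, without SNc 7.

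Fgf2, basic FGF, is a ligand best known in brain from astrocytes and is also found in midbrain neurons. By its brighter probe set, M22427_at, the signal ran from 26.8 to 92.3 in SNc with a median of 59.2, and from 63.3 to 96.5 in VTA with a median of 68.4. The VTA arrays lay within a narrow range, and 5 of the 8 SNc arrays were below all of them. The log2 difference was -0.26 (SE 0.17, 95% interval -0.62 to 0.096, adjusted p = 0.495), and -0.17 after median centring. The dimmer probe set X07285cds_s_at, whose mean level of 26.5 was just inside the filter, differed by -0.23 (SE 0.22, adjusted p = 0.655). After subtracting each region's mean, the pair of Fgf2 probe sets had a Pearson r of 0.030 over the 15 arrays, close to none.

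Fgf14, the intracellular partner of sodium channels, was dim in both regions and was not tested. Its 1 probe set ran from 2.46 to 7.50 in SNc with a median of 4.26, and from 2.38 to 25.4 in VTA with a median of 13.1. VTA 1, VTA 3, VTA 5 and VTA 6 were above every SNc array, and VTA 8 was below all of them. The mean level of 7.61 was far under the 26.3 of the filter. In the fit with no filter the log2 difference was -0.42 (SE 0.15), with an adjusted p of 0.203. At such signals the size of the difference depends on the offset of 16, and a low signal shows only that this probe set was dim.

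Fgfr1 and Fgfr2 are the receptors, and their probe sets were dim in both regions. The brighter Fgfr1 probe set, AF000144_at, ran from 10.1 to 55.7 in SNc with a median of 35.1, and from 12.8 to 68.5 in VTA with a median of 29.9. Its log2 difference was 0.076 (SE 0.23, 95% interval -0.41 to 0.56, adjusted p = 0.913). The probe set D12498_s_at differed the other way, by -0.19 (SE 0.22, 95% interval -0.64 to 0.26, adjusted p = 0.723). After median centring AF000144_at lay at 0.17 and D12498_s_at at -0.099. The intervals reach 0.56 towards SNc and -0.64 towards VTA, so the arrays do not show that Fgfr1 was equal in both. The third Fgfr1 probe set, S54008_i_at, was between 0.722 and 2.01 on every array. AF000144_at and D12498_s_at had an r of 0.48 within regions over the 15 arrays.

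For Fgfr2, 1 of 4 probe sets was tested. L19112_g_at ran from 13.7 to 43.4 in SNc and from 26.0 to 43.0 in VTA, with medians of 29.4 and 31.4. Its log2 difference was -0.082 (SE 0.15, 95% interval -0.39 to 0.22, adjusted p = 0.836), and its sign turned after quantile normalization (0.016) and median centring (0.010). Z35138cds_s_at, at 3.05 to 7.87 in SNc and 6.87 to 12.0 in VTA, was above every SNc array in 5 of 7 VTA arrays. In the fit with no filter it differed by -0.23 (SE 0.077, adjusted p = 0.184), at signals where the offset makes up most of the value. L19107_s_at and L19112_at differed by -0.13 (SE 0.25) and 0.077 (SE 0.086) in that fit. L19112_at and L19112_g_at target the same accession, and the 4 Fgfr2 probe sets had correlations within regions from -0.26 to 0.53 over the 15 arrays.

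**Figure D3:**
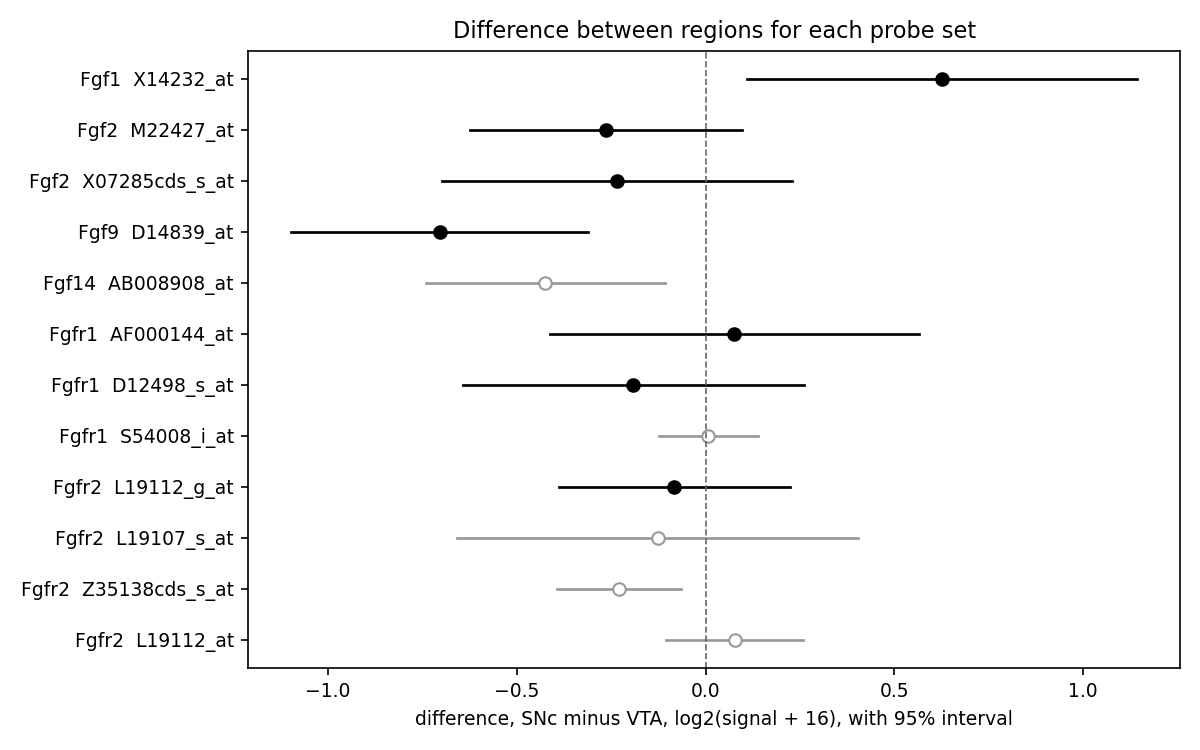
Difference between regions (SNc minus VTA, log2(signal + 16)) with its 95% interval from limma for each of the 12 probe sets; filled black points were tested and open grey points, below the filter, come from the fit with no filter. Fgf9 lies to the left at -0.70 and Fgf1 to the right at 0.63, and the 3 receptor probe sets that were tested have intervals that cover 0.

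Markers of other cells were looked at beside these values. Of 7 oligodendrocyte markers tested, 0 passed the threshold and 6 were lower in SNc; the summed signal of the list was 5690 to 9912 in SNc and 8023 to 12008 in VTA. Mbp, a myelin protein, was at 3784 ± 898.6 (SD, n = 8) in SNc and 4838 ± 983.4 (SD, n = 7) in VTA. Of 7 astrocyte markers tested, 0 passed, with sums of 4299 to 6534 in SNc and 4453 to 7171 in VTA. Of these markers 4 were lower and 3 higher in SNc, with log2 differences from -0.64 (Fabp7) to 0.10 (Aldoc). All 4 GABA neuron markers tested had more signal in SNc, 2 of them past the threshold, Gad1 and Pvalb, and the list's sum was 953.6 to 1911 in SNc and 607.7 to 1149 in VTA. Of 4 microglial and 5 vessel and blood markers tested, 0 passed, and 3 and 5 were lower in SNc; their sums were 894.8 to 1677 and 460.3 to 1098 in SNc, and 824.6 to 2025 and 508.9 to 2180 in VTA. No glutamate neuron marker passed the filter, the 1 on the array summing to 1.59 to 6.64 in SNc and 2.41 to 7.35 in VTA. The part of such cells in the Fgf9 and Fgf1 values was not tested. In captured tissue, fewer cells of a type and less RNA per cell cannot be told apart.

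The other FGF ligands on the array were all below the filter. There were 6 of 17 listed, with regional mean signals between 7.41 and 41.5. Fgf16, a close relative of Fgf9, stood out and is named here after its values were seen. Its signal ran from 9.19 to 25.6 in SNc with a median of 14.1, and from 25.9 to 66.7 in VTA with a median of 34.1. All 7 VTA arrays were above all 8 SNc arrays, though the lowest VTA array and the highest SNc array nearly met; 0.549% of all probe sets were separated in this way. Its mean level of 25.2 fell just short of the 26.3 that the filter required. In the fit with no filter its log2 difference was -0.82 (SE 0.16, adjusted p = 0.0186 in limma), and the adjusted p was 0.0161 to 0.0400 on leaving out each array in turn. The exact permutation p was 0.000311, and 0.0533 after adjustment over all 8740 probe sets. The size ran from -1.32 with an offset of 1 to -0.39 with an offset of 64. Fgf18, also named after its values were seen, differed by 0.48 (SE 0.19, adjusted p = 0.287), with means of 19.5 in SNc and 7.87 in VTA.

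The rest of the pathway was listed by role. Over 6 roles 102 genes were listed, 55 were on the array and 37 passed the filter. Of these 37, 14 had a positive and 23 a negative difference. Past the threshold were 0 with more signal in SNc and 2 with more in VTA, where 2.17% of all 3221 genes tested passed in either direction. Their median difference was -0.13, and -0.035 over all genes tested. The number passing was 0 without SNc 3, VTA 4 or VTA 5 and in the exact permutation test, and 1 after quantile normalization or median centring. It was 1 without SNc 2, SNc 4, SNc 6, SNc 7, VTA 1, VTA 2, VTA 3 or VTA 6.

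Spry1, a Sprouty inhibitor that FGF signalling induces, was the feedback gene that passed. Its signal ran from 34.5 to 61.9 in SNc with a median of 43.9, and from 55.8 to 97.5 in VTA with a median of 81.9. In 6 of the 7 VTA arrays it was above every SNc array. The log2 difference was -0.60 (SE 0.14, adjusted p = 0.0366), and all 8 SNc arrays were below the VTA mean. The call was lost when any 1 of 9 arrays was left out (SNc 2, SNc 3, SNc 6, SNc 7, VTA 3, VTA 4, VTA 5, VTA 6 or VTA 8), with adjusted p up to 0.0820. It was also lost under quantile normalization, median centring and the exact permutation test, and without both VTA 5 and VTA 8, with adjusted p up to 0.0912 over all alternatives. Of the 6 feedback and target genes tested, 5 were lower in SNc by their brightest probe set, with a median of -0.27. The next by p was Egr1, an early transcription factor (-0.40, SE 0.18, adjusted p = 0.297). Other tested probe sets did not all keep the sign. They lay at 0.52, 0.37, -0.070 and -0.27 for Ccnd1, at 0.31 for Fos and at -0.41 for Egr1. Dusp6, a phosphatase that acts on ERK, was 57.9 ± 20.2 (SD, n = 8) in SNc and 53.5 ± 16.7 (SD, n = 7) in VTA.

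Among the sodium channels and scaffold proteins listed for Fgf14, without a test of binding to each, Scn9a passed, with more signal in VTA. It ran from 35.7 to 101.9 in SNc and from 74.3 to 130.0 in VTA (log2 difference -0.73, SE 0.16, adjusted p = 0.0280). In 4 of the 7 VTA arrays it was above every SNc array, and its other probe set was below the filter. Leaving out any of SNc 3, SNc 4, VTA 1, VTA 2, VTA 4 or VTA 5 ended the call, with adjusted p up to 0.0635, as did the exact permutation test, leaving out both VTA 5 and VTA 8, and averaging its probe sets (adjusted p = 0.137). Scn1a lay the other way, at 181.1 ± 31.1 (SD, n = 8) in SNc and 128.0 ± 39.2 (SD, n = 7) in VTA (0.48, SE 0.17, adjusted p = 0.168). Of the 7 genes of this role tested, 4 were higher and 3 lower in SNc by their brightest probe set. Ank3 was counted as higher at 0.14, while its other tested probe sets lay at -0.23 and -0.16. Those of Scn3a and Scn8a kept the sign, at -0.23 and -0.079.

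The co-receptors, heparan sulfate genes and signalling proteins gave 0 calls. Of 6 other receptors and adhesion partners, 5 were lower in SNc, with Ncam1 at -0.45 (SE 0.22, adjusted p = 0.324) and Cdh2 at -0.47 (SE 0.24, adjusted p = 0.351), both adhesion molecules that bind FGF receptors. Fgfr4, the only other FGF receptor past the filter, differed by -0.082 (SE 0.14). These values are by the brightest probe set of each gene. Other tested probe sets lay at 0.030 for Cdh2, 0.043 for Nptn, -0.57 for Ncam1 and -0.16 for Fgfr4. Of 8 heparan sulfate genes, 4 lay in each direction. Syndecan-2, encoded by Sdc2, had 6 of 7 VTA arrays above every SNc array and a difference of -0.50 (SE 0.17, adjusted p = 0.139). It passed without VTA 8 (-0.63, adjusted p = 0.0324) and without both VTA 5 and VTA 8 (-0.65, adjusted p = 0.0404). Agrn, or agrin, differed by -0.45 (SE 0.22, adjusted p = 0.332). Of 10 signalling genes, 6 were lower in SNc by their brightest probe set, with a median of -0.090. The adaptor Grb2 (-0.24, SE 0.13, adjusted p = 0.381) and the kinase Akt1 (0.24, SE 0.15, adjusted p = 0.486) had the smallest p among them. The other tested probe sets of Grb2 lay at 0.26 and -0.040, and that of Akt1 at 0.41. Tested probe sets of Nras, Prkcb, Map2k1 and Map2k2 also differed in sign within the gene.

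**Figure D4:**
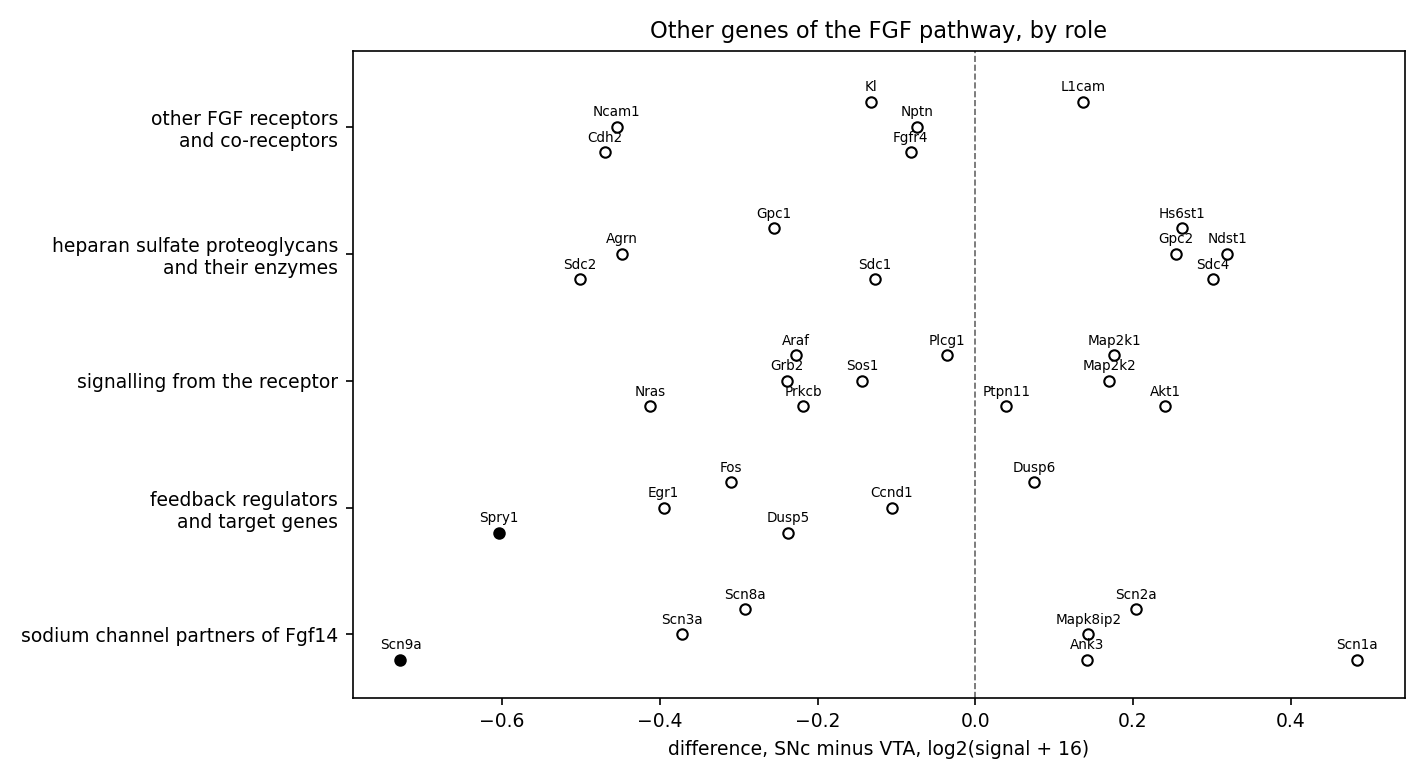
Difference between regions (x axis, SNc minus VTA, log2(signal + 16)) of the 37 other pathway genes that passed the filter, 1 row per role with points spread vertically for legibility. Filled points passed the threshold: Spry1 at -0.60 and Scn9a at -0.73.

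The genes whose signal followed each member most closely were found by Pearson's r over the 15 arrays after subtracting the region means, among 3220 other genes. All genes of an array share its hybridisation and scaling, and each r was picked as among the highest of 3220. These values are thus a description, and how high such r run between unrelated genes was not tested. Fgf9 was followed by Rab5b, a GTPase of early endosomes (r = 0.92, Spearman's rho 0.88), Pkp4 (0.89, rho 0.66) and Tnfrsf21 (0.86, rho 0.87). None of these differed between regions past the threshold, with adjusted p from 0.481 to 0.782. Fgf1 was followed by Zp2 (0.83, rho 0.82), Cnih2 (0.77, rho 0.79) and Timm17a (0.74, rho 0.75).

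Fgf2 was followed by Adora2a, an adenosine receptor (0.88, rho 0.85), Kcnh8 (0.80, rho 0.62) and Fgfr2 (0.78, rho 0.65). That Fgf2 and Fgfr2 pair was the highest of the 10 pairs among the 5 members tested, and SNc 2 was the lowest array of its region for both. Fgfr1 was followed by Psmd13, a proteasome subunit (0.92, rho 0.89), Ddah1 (0.83, rho 0.80) and Kl, which encodes klotho, a co-receptor of FGF receptors (0.82, rho 0.63). Fgfr2 was followed by Il10 (0.86, rho 0.79), P2rx4 (0.85, rho 0.74) and Ctla4 (0.84, rho 0.86), at signals between 29.6 and 78.4. Fgf9 and Fgf1, whose differences between regions ran opposite ways, had an r of 0.32 within regions.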

How the data were processed

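The authors deposited, for each array, 1 linear intensity per probe set, with a 2% trimmed mean of 150.2 on every array, so the values show scaling to a common level. The software behind them is not given in the sources used here, and no detection calls were used. Of 8799 probe sets, 59 controls were left out. Gene symbols came from the platform annotation, which gave 7006 probe sets 1 symbol, 308 several and 1426 none; no member symbol stood on a probe set with several, and the gene identifiers of all 6 members matched RefSeq (GRCr8, used for names only).

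Regions were compared with limma 3.58.1 in R 4.3.3 (two-sided, Benjamini-Hochberg adjustment over the 5244 probe sets past the filter, threshold 0.05). For other genes, the tested probe set of highest mean stood for the gene. The procedure was tested on simulated data. Alternatives changed the normalization (quantile, or centring on the median), the offset (1 or 64), the filter (none, or 60%) and the variance (trended and robust). Others used the replicate number as a block, an exact permutation test or each gene's probe sets averaged, or dropped each array in turn.

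Named genes were every member probe set, the called genes and the 2 smallest p of each role, and the 3 genes most like each member; Fgf16, Fgf18, Fgfr4 and Dusp6 were added after their values were seen. The members and lists were chosen with earlier results of these data known. Probe sequences were not used here. For arrays, their number limits the precision.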

Additional observations from a re-analysis of the deposited data

Results flagged for a closer look

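The signal of Fgfr1 by AF000144_at in SNc 2 lay far below the other arrays of its region, at 10.1 against 28.6 for the next lowest. The gap was 0.530 of the region's range on the log2(signal + 16) scale, just past Dixon's 95% critical value for 8 arrays. SNc 2 also had the lowest signal of its region for the Fgf2 probe set M22427_at and for L19112_g_at of Fgfr2. This was 1 of 24 groups looked at, and chance gives about 1 in 20.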

How the results depend on the processing

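Fgf9 stayed lower in SNc under all 27 alternatives, from -0.94 to -0.56, and passed under 5 of them. These were an offset of 64 (-0.56, adjusted p = 0.0402), a filter of 60% (-0.70, adjusted p = 0.0483), the replicate number as a random block (-0.69, adjusted p = 0.0391), leaving out VTA 8, and leaving out both VTA 5 and VTA 8 (-0.94). Without single arrays it ran from -0.84 to -0.62. Fgf1 stayed higher in SNc under all 27, from 0.45 to 0.77, and passed only with the replicate number as a fixed block (0.77, adjusted p = 0.0486), a fit to which SNc 7 adds nothing because no VTA array has its number. Same-numbered arrays correlated by 0.044 to 0.254 after region means were removed, over 0.1 in 5 of 7 pairs, and not every array correlated best with its own number, so the numbers are not taken to pair the arrays. Both Fgf2 probe sets and D12498_s_at of Fgfr1 kept their sign and missed the threshold throughout. AF000144_at of Fgfr1 turned to -0.078 without both VTA 5 and VTA 8, and ran from -0.044 to 0.21 without single arrays. The mean of all Fgfr1 probe sets, with the dim S54008_i_at among them, differed by -0.036. L19112_g_at of Fgfr2 turned to 0.016 after quantile normalization and 0.010 after median centring, and ran from -0.14 to 0.0024 without single arrays.

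The number of member probe sets called was 0, and 1 with an offset of 64, a filter of 60%, either replicate block, or without both VTA 5 and VTA 8; without single arrays it was 0 to 1. Over all probe sets 104 were called, 44 higher in SNc and 60 in VTA; 60 with an offset of 1, 68 by the exact permutation test, and 56 to 115 without single arrays (at most 69 without SNc 2, SNc 3, SNc 4, VTA 1, VTA 2, VTA 3, VTA 5 or VTA 6). Median centring gave 67 and 37. Of the other pathway genes 2 were called, and 1 after quantile normalization, median centring, a filter of 60%, or the fixed replicate block, in each case Scn9a. Spry1 fell below the filter of 60% and was not tested in that fit. Without both VTA 5 and VTA 8 the 1 called was Sdc2, and without VTA 8 the 2 called were Scn9a and Sdc2. The number was 0 by the exact permutation test and 0 to 2 without single arrays. Fgf16 missed the threshold with the fixed replicate block (adjusted p = 0.0751) and the exact permutation test, and passed under 20 of 22 alternatives, all chosen after seeing the data. Dim signals limit what can be said of Fgf14, Fgfr1 and Fgfr2.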
